A study of Schizosaccharomyces pombe with 6 samples.

Results

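The quiet blocks were the long stretches of a strand-specific fission yeast tiling array over which total RNA gave no continuous signal on either strand. The numbered probes of the array, its densely tiled part, alternated between the strands, so that an odd probe and the even probe after it formed 1 of 73500 positions. An input run was defined as 3 or more probes of 1 strand flagged above background in the total RNA channel of all 6 arrays, with single off probes bridged, and a quiet block as 30 or more consecutive positions that no input run covered on either strand. This rule found 63 blocks with 5153 positions and 10306 probes, 7.01% of all positions and 25.3% of the 27.7% that no input run covered. The members were chosen on the input channel alone, so the RNA bound to the purified proteins is a measurement that the rule did not use.

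The samples were 3 Schizosaccharomyces pombe strains, each with 1 subunit of the MTREC complex fused at its C-terminus to a Flag-TEV-protein A (FTP) tag. They were Red1-FTP (strain p919), Mtl1-FTP (strain p920) and Red5-FTP (strain p1160), with 2 arrays each. By the study's strain list all 3 carried leu1-32 and ura4D18, while Red1-FTP and Mtl1-FTP were h90 with ade6-M210 and Red5-FTP was h+ with another ade6 allele, so that the Red5-FTP bait and its mating type and ade6 allele cannot be told apart. All cells were grown in YEA medium at 30 °C to an optical density of 1.8 to 2.2. On every array the RNA recovered with the bait by tandem affinity purification (IP) was labelled with Cy5 and total RNA of the same strain (input) with Cy3, and the dyes were not swapped. Each bait was represented by 1 strain, and no untagged strain was analysed here, so RNA that stayed on the beads without the bait and RNA bound through it cannot be told apart. IP and dye cannot be told apart either.

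MTREC is a nuclear complex around the zinc-finger protein Red1 and the Mtr4-like RNA helicase Mtl1, and it hands unstable RNAs to the nuclear exosome, the main 3′ to 5′ RNA-degrading machine of the nucleus. Red5, another zinc-finger protein, belongs to a submodule of the complex with the poly(A)-binding protein Pab2. In fission yeast, long regions with little steady-state RNA include the heterochromatin of centromeres, subtelomeres and the mating-type locus, where repeated sequence is common and where transcripts are removed by RNA interference and by the exosome. The study's methods place the dense tiling on chromosome 2 and the start of chromosome 3. Single probes were not given a coordinate or a gene here, so which of these regions, if any, the blocks cover was not determined, and probes are named by their number only.

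The blocks were 30 to 543 positions long, with a median of 46. Of the 63 blocks, 17 held 100 or more positions and together 60.4% of all quiet positions. At the threshold, 5 uncovered stretches had exactly 29 positions and stayed outside, and 5 had exactly 30 and were members. The blocks were not spread evenly along the probe numbering. When blocks at most 500 positions apart were joined, a distance chosen after the values were seen, 34 of the 63 blocks and 77.45% of the quiet positions fell into 4 clusters. They ran from probe 1 to 4590 (13 blocks, 1378 quiet positions), from 40453 to 41700 (2 blocks, 619 positions), from 110737 to 114928 (13 blocks, 1065 positions) and from 140597 to 142546 (6 blocks, 929 positions). Of the positions from end to end, 60.04%, 99.2%, 50.8% and 95.3% were quiet, in that order. The other 29 blocks lay in 24 places, and the longest of them had 116 positions. The study's methods place the dense tiling on more than 1 chromosome. Where the numbering passes between chromosomes was not determined, so a block or cluster may span such a point.

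Input RNA was not absent from the blocks. On single arrays, 11.7 to 23.3% of their probes passed the input detection flag (16.2% ± 4.26, SD, n = 6), against 0.494 to 1.23% of the 810 negative control spots. By the rule they formed no input run, but they were not evenly spread. In the IP-only runs described below, a median of 45.8% of the input spots were detected. In the input, 7107 probes (69.0%) were detected on no array and 678 (6.58%) on all 6. The blocks are therefore described as quiet, or without an input run, and not as free of RNA.

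IP RNA was measured on the same probes. In the Red1-FTP purifications 34.5% and 19.8% of the quiet probes passed the IP detection flag, in the Mtl1-FTP purifications 21.5% and 30.4%, and in the Red5-FTP purifications 29.7% and 38.5% (replicates 1 and 2). The mean was 29.1% ± 7.27 (SD, n = 6), and 0.494 to 1.23% of the negative controls passed the same flag. Cultures were measured in bulk, so RNA from fewer cells and less RNA per cell cannot be told apart. The bait means were 27.2% ± 10.4 for Red1-FTP, 25.9% ± 6.30 for Mtl1-FTP and 34.1% ± 6.20 for Red5-FTP (SD, n = 2), and the arrays of the 3 baits overlapped. The median log2 IP signal in the blocks was 3.48 ± 0.66 against 2.93 ± 0.41 in the negative controls, and the median log2 input signal was 3.41 ± 0.39 against 3.28 ± 0.37 (SD, n = 6). The flag is set per channel from that channel's own background, and the rule itself chose probes with little input, so the difference between the IP and input shares of the blocks is not a measure of enrichment. Over the whole densely tiled part, too, IP shares (55.3 to 67.3%) lay above input shares (47.0 to 57.3%).

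**Figure D1:**
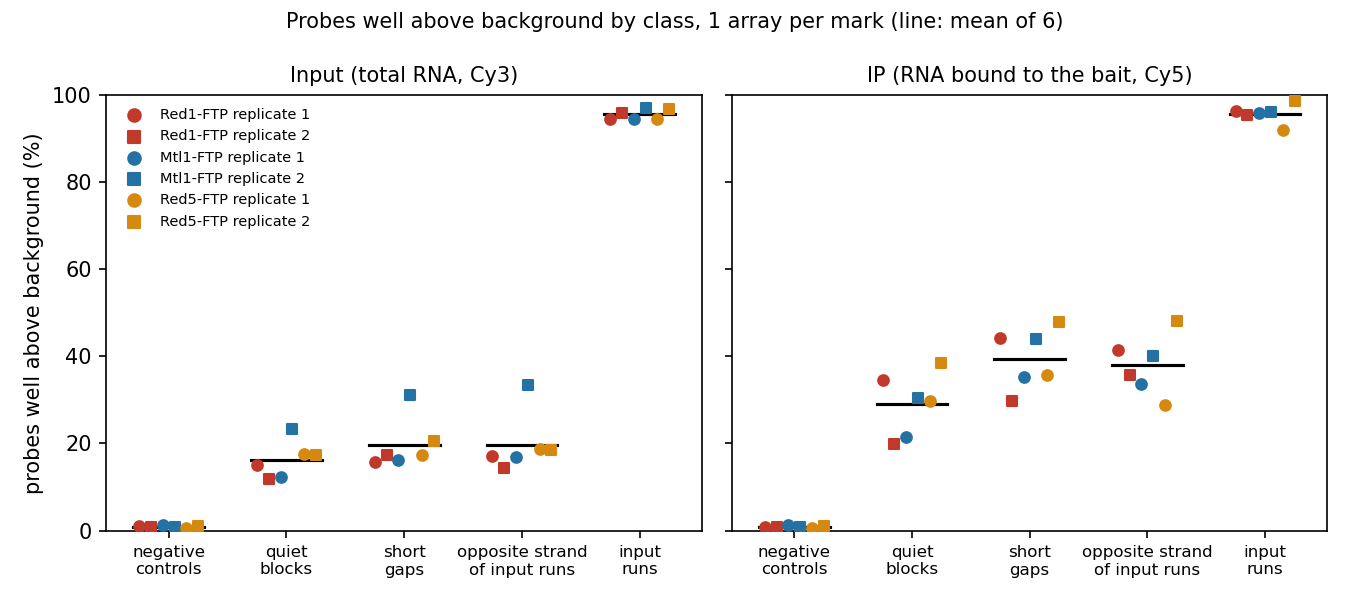
Share of probes well above background (percent) in the input channel (left) and the IP channel (right) for negative control spots, quiet blocks, short gaps, the opposite strand of input runs and the input runs themselves. Each mark is 1 array, coloured by bait with its shape giving the replicate, and each line is the mean of the 6 arrays. In the quiet blocks the IP marks lie between 19.8 and 38.5% and the input marks between 11.7 and 23.3%.

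The same probes tended to be detected on all arrays. In the IP channel 5485 of the 10306 probes (53.2%) were detected on no array and 1480 (14.4%) on all 6, and each number of arrays in between held 4.97 to 9.42%. IP RNA on all 6 arrays with input on none was found at 376 probes (3.65%). The reverse, input on all 6 arrays with IP on none, was found at 7 probes (0.0679%). The rule limits probes with input on all arrays, and over the whole densely tiled part these shares were 3.28% and 0.0252%. Over the 10306 quiet probes, log2 IP signals correlated with r of 0.870 to 0.923 between the 2 arrays of a bait and 0.814 to 0.910 between arrays of different baits. These points share probe sequence and labelling, and the 2 ranges overlap.

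In the mean of the arrays, IP detection was lower in the quiet blocks than in the other parts of the array that lacked an input run, although no difference passed the test after adjustment. Short gaps, the 2347 uncovered stretches of 1 to 29 positions, had 39.5% of their probes detected, and the opposite strand of input runs, the uncovered strand of positions with a run on the other strand, had 38.0%. The blocks were below the short gaps on 6 of 6 arrays, by 6.06 to 13.8 percentage points (mean difference -10.4 ± 2.92, SD, n = 6). Flipping the signs of the 6 array differences (an exact, two-sided permutation test) gave p = 0.03125, the smallest that 6 arrays allow, and an adjusted p of 0.0521 over the 5 share comparisons, which did not pass 0.05. They were below the opposite strand of runs on 5 of 6 arrays (mean difference -8.89 ± 5.63 percentage points, exact p = 0.0625, adjusted p = 0.0625), and the exception was Red5-FTP replicate 1 at 0.826 points above. Input detection was also lower in the blocks than in these 2 classes (16.2% against 19.7% and 19.7%), and its part in the difference was not tested. When the blocks for replicate 1 arrays were found in replicate 2 inputs and the reverse, so that no array had a part in choosing its own blocks, the differences were -10.6 and -9.71 points and both had an adjusted exact p of 0.0391.

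Long and short blocks had like shares. In the 17 blocks of 100 or more positions 27.7% ± 7.38 (SD over 6 arrays) of the IP spots were detected, and in the 22 blocks of 30 to 39 positions 28.97% ± 5.67. Both were measured on the same 6 arrays, and their difference within arrays was not tested. Single blocks ranged from 4.17 to 63.97%, with a median of 27.6%.

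The cluster of 6 blocks at the high end of the numbering had the highest IP detection of the 4 clusters. From probe 140597 to 142546, 42.1% ± 12.2 of the IP spots were detected with 17.99% ± 5.55 of the input spots (SD, n = 6). The cluster from 40453 to 41700 had 33.6% ± 9.60 with 15.8% ± 4.46 of the input. The clusters from 1 to 4590 and from 110737 to 114928 had 22.8% ± 6.92 and 22.9% ± 4.80, with input at 13.96% and 15.5%, and the other 29 blocks 29.4% ± 5.84 with 18.4%. The input shares of these groups had SDs of 3.24 to 5.86 between arrays. These shares describe clusters found in the same data, and no test was made on them.

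**Figure D2:**
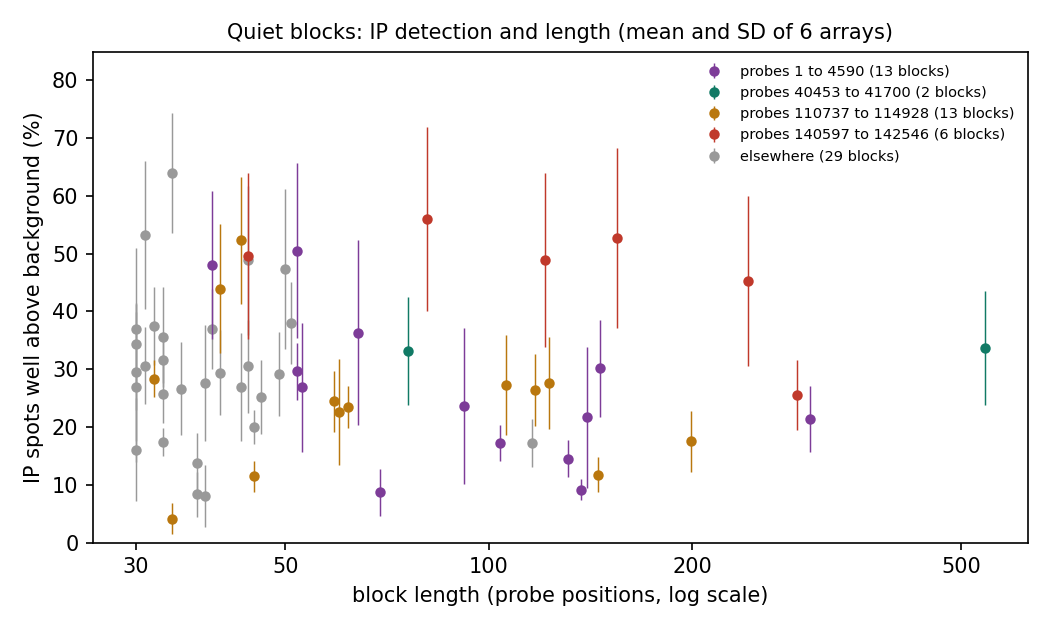
IP detection of each quiet block (percent of IP spots well above background, mean and SD of 6 arrays) against its length in probe positions on a log axis. Colours mark the 4 clusters along the probe numbering and grey the other 29 blocks. Block shares run from 4.17 to 63.97% over blocks of all lengths, and the blocks from probe 140597 to 142546 reach 56.1%.

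The 6 longest blocks differed in what the baits brought down. The longest, probes 40453 to 41538 with 543 positions, had 39.8% and 20.3% of its IP spots detected on the Red1-FTP arrays, 24.5% and 34.2% on those of Mtl1-FTP and 36.7% and 46.7% on those of Red5-FTP. The block from 1 to 598 (299 positions) had 13.7 to 27.6% over the 6 arrays. The block from 141089 to 141660 (286 positions) had 17.5 to 33.7%. These 3 blocks overlapped in their ranges. The block from 140597 to 141080 (242 positions) had 26.9 to 66.7% and the block from 142047 to 142356 (155 positions) 35.2 to 77.4%, and in both the Red5-FTP replicate 2 array was the highest and Red1-FTP replicate 2 the lowest. The block from 111721 to 112118 (199 positions) had 11.3 to 25.9%, which overlapped the first 3 blocks, but held no IP-only run. Its mean log2 ratio of IP over input was -0.05 ± 0.09 (SD, n = 6), against 1.04 ± 0.16 in the block from 142047 to 142356 and 0.53 ± 0.13 in the longest block.

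The most and least detected blocks were mostly short. A block of 34 positions from probe 84949 to 85016 had the highest IP share, 63.97% ± 10.4, with 22.8% of the input spots and a mean log2 ratio of 1.86 ± 0.46 (SD, n = 6). It was followed by the block from 142385 to 142546 (81 positions, 56.1% ± 15.9) and that from 49555 to 49616 (31 positions, 53.2% ± 12.8). The lowest share was in the block from 112749 to 112816, where 1.47 to 7.35% of the IP spots and 2.94% of the input spots were detected. The next lowest were the blocks from 119027 to 119102 and from 15631 to 15704, with 8.11% and 8.33% of the IP spots, fewer than the 10.96% and 14.9% of their input spots. Over all blocks, the mean log2 ratio was above 0 on 6 of 6 arrays in 33 and below 0 on 6 of 6 arrays in 10, with the input that the rule selected as the denominator. Over the whole densely tiled part the mean log2 ratio was above 0 too, at 0.240 to 0.431 on the 6 arrays. The split is therefore not read as a trait of the blocks.

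Continuous IP signal was found inside the blocks. An IP-only run was defined on the IP channel as the input run was on the input channel, lying wholly in a quiet block. There were 129 such runs, 66 on the odd and 63 on the even strand, out of 5012 IP runs in the dense part of the array. They were 3 to 19 probes long with a median of 5, and 25 had 10 or more probes. They held 856 probes, 8.31% of the quiet probes, and lay in 40 of the 63 blocks, while 23 blocks had none. The 7 blocks with 5 or more runs held 64 of the 129. Of the 129 runs, 100 lay in the 4 clusters, 41 of them between probes 140597 and 142546. The density was 4.41 runs per 100 positions there, 3.55 from 40453 to 41700, 1.60 from 1 to 4590 and 1.41 from 110737 to 114928. In the short gaps it was 2.76 and in all quiet blocks together 2.503. A gap of fewer than 3 positions cannot hold a run, so these 2 densities are not on the same footing. On positions without an input run on either strand there were 548 IP runs, among them these 129. The blocks held 25.3% of those positions.

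The name IP-only refers to runs and not to single probes. In these 129 runs a median of 45.8% of the input spots were detected, 100 runs held at least 1 probe with input on all 6 arrays, and only 2 runs had no input spot detected on any array. The mean log2 ratio of IP over input in the runs had a median of 2.06 and ranged from -1.16 to 4.34, and it was above 0 on 6 of 6 arrays in 114 runs. Where an input spot was not well above background its ratio is only a bound. With the lowest input signal well above background on that array put in its place, or the spot's own signal where higher, the median run had a log2 ratio of at least 1.46, and 103 of the 129 runs stayed above 0 on all arrays. These ratios describe runs chosen for their IP signal and were not tested. Of the 129 runs, 61 faced an IP run on the other strand, and 91 lay 11 or more positions from both ends of their block.

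The 10 longest runs had 14 to 19 probes. The longest, even probes 37054 to 37090, had mean log2 IP signals of 7.68 and 6.92 for Red1-FTP, 6.51 and 8.03 for Mtl1-FTP and 7.72 and 7.74 for Red5-FTP. The baits overlapped, and the log2 ratio was 1.84 ± 0.46 (SD, n = 6), at least 2.76-fold, with 57.0% of the input spots detected. The even run from 142510 to 142538 had a log2 ratio of 2.01 ± 0.35, at least 2.75-fold. The runs from 141717 to 141745, 142404 to 142430 and 41391 to 41417 had ratios of 1.49 ± 0.23, 1.84 ± 0.34 and 1.21 ± 0.28. The other 5 of the 10 were the runs starting at 40735, 140943, 141155, 141920 and 142258. They had 15 or 16 probes each and log2 ratios between 2.58 and 2.75, at least 3.95-fold to 4.56-fold, and they lay in stretches with like signal patterns, as described next.

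Several stretches of the quiet blocks showed a signal pattern like that of another stretch, which started 166 to 142048 probes away in the numbering. Each stretch of 40 positions on both strands was compared with every other in the blocks, in the same orientation and with order and strands inverted, on the mean log2 IP signal of the 3 replicate 1 arrays. Pairs with r of 0.8 or more there were kept where the replicate 2 arrays also gave 0.8 or more, and neighbouring hits were joined, so a joined stretch can have a slightly lower r. These limits were set after the values were seen, and the result is a description. It gave 30 pairs of stretches, 10 in the same and 20 in the inverted orientation, that covered 1398 positions (27.1% of the quiet positions) in 11 blocks and 45 of the 129 IP-only runs. The median best r of all 2815 stretches was 0.62.

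The longest pair was a whole block. All 121 positions from probe 141775 to 142016 recurred in the same orientation from 142113 to 142354, with r = 0.976 in the replicate 2 IP channel and r = 0.924 in the replicate 2 input channel over 242 values. In the longest block, 105 positions from 40875 to 41084 recurred in inverted orientation from 41115 to 41324, with r = 0.907 in the IP and 0.856 in the input. Between clusters, 86 positions from 40669 to 40840 recurred from 141089 to 141260, with r = 0.927 in the IP and 0.794 in the input. The input channel had no part in choosing the pairs, and over the 30 pairs its r ranged from 0.30 to 0.92. The points share probe design and position in the block. Whether the paired probes have like sequence was not tested, since no probe sequence was read.

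Inside the block from 141089, and less closely inside the longest block, the pattern took the form of a mirror. For each of the 17 blocks of 100 or more positions the odd strand was set against the reversed even strand about every possible centre with at least 60 positions, and the centre was chosen on the replicate 1 IP channel. In the block from 141089 the mirrored part of 192 positions gave r = 0.823 in the replicate 2 IP and 0.786 in the replicate 2 input. In the longest block the mirrored part held 439 of 543 positions (80.8%), with r = 0.647 and 0.570. The other 15 blocks had r of 0.14 to 0.52 in the replicate 2 IP.

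A run of 15 probes was followed through the pairs. It was the longest IP-only run of the longest block that lay in such stretches, and how often other runs recurred was not counted. Aligning the pairs to the odd run from 40735 to 40763 gave 8 places, starting at probes 255, 40735 and 41426, and at 140943, 141155, 141922, 142092 and 142260 in the last cluster. The places at 41426, 141922, 142092 and 142260 lay on the even strand in inverted order. Over 61 values around the run, the IP signal of the other 7 places correlated with that at 40735 with r of 0.58 at 255, 0.71 at 142092, 0.74 at 140943 and 0.79 to 0.93 at the other 4, and the input with r of 0.32 to 0.81. At these places 84.4 to 100% of the IP spots and 35.6 to 56.7% of the input spots were detected. The mean log2 IP signal over the 8 places was 8.29 and 7.67 for Red1-FTP, 6.70 and 8.003 for Mtl1-FTP and 7.79 and 9.09 for Red5-FTP. The log2 ratio of IP over input was 3.01 and 3.16 for Red1-FTP, 2.38 and 2.79 for Mtl1-FTP and 1.88 and 3.13 for Red5-FTP. The ratio was above 0 on 6 of 6 arrays, and the baits overlapped. The mean ratios of the 8 places lay between 2.56 and 2.86, and the SD between arrays at each place was 0.44 to 0.64. The places share these arrays, so this SD does not measure the spread between places. On single arrays the places spanned more, up to 1.999 to 2.66 with Mtl1-FTP replicate 1. They are not counted as 8 independent observations, and whether the RNA came from 1 of the places or from several was not tested.

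**Figure D3:**
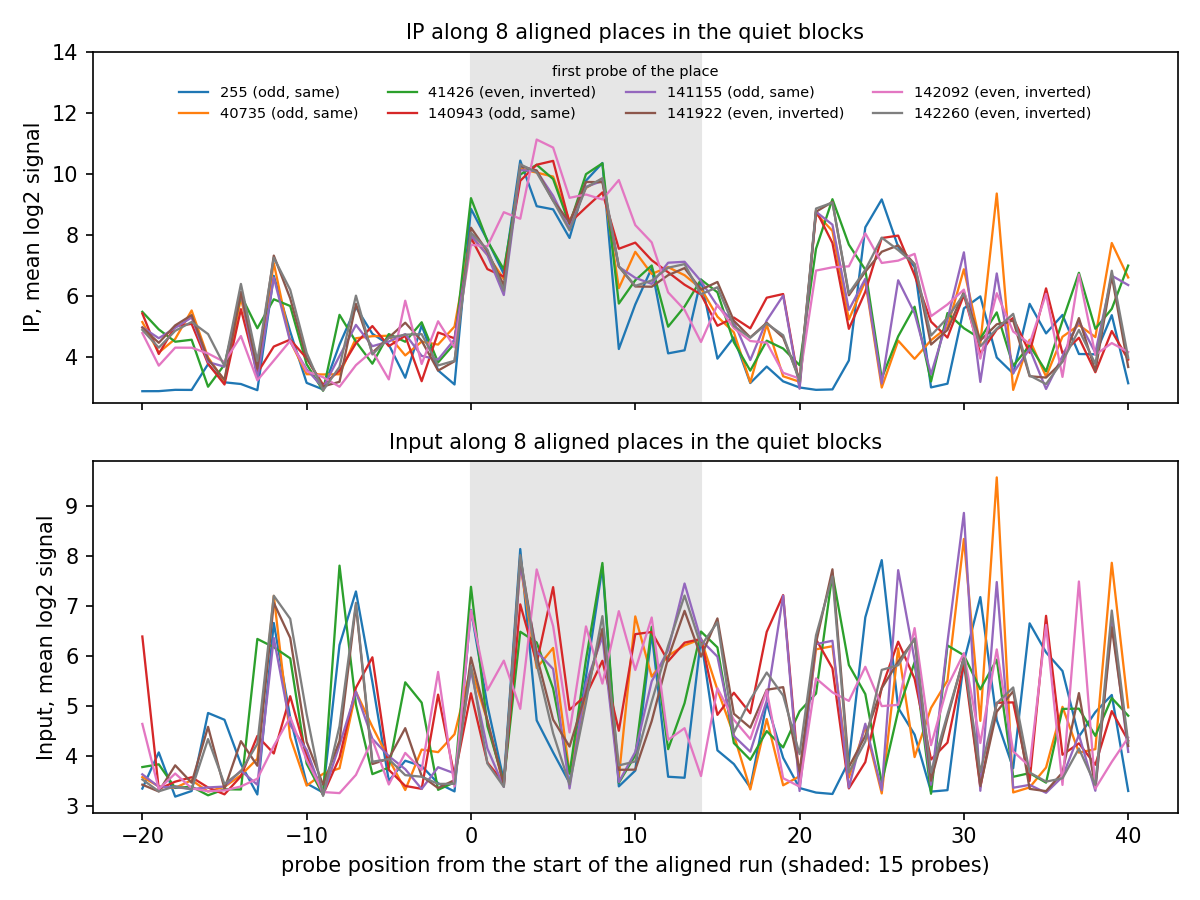
Mean log2 signal of the 6 arrays in the IP (top) and input (bottom) along 8 places of the quiet blocks, aligned by probe position to the start of the odd run at probe 40735, with inverted places read backwards on the other strand. The shaded 15 probes are the recurring run, where the mean log2 IP signal of the places is 7.42 to 8.28.

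The runs with the highest IP signal were short, with 3 probes on in all arrays. They started at probes 14727, 41594, 41221, 140608 and 104499, with mean log2 IP signals of 12.7, 11.5, 10.6, 10.3 and 10.1. Signals of different probes also differ by probe, and this order served only to name them. The 3 runs starting at 14727, 41594 and 140608 had 94.4, 88.9 and 83.3% of their input spots detected. The run at 41594 was lower in IP than in input on 6 of 6 arrays (log2 ratio -1.16 ± 0.54, SD, n = 6). The run at 104499 to 104503 was the opposite, with log2 ratios of 4.63 and 2.71 for Red1-FTP, 3.72 and 3.47 for Mtl1-FTP and 5.15 and 5.03 for Red5-FTP. Its mean was 4.12 ± 0.97, at least 14.6-fold, and only 5.56% of the IP spots facing it on the other strand were detected.

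**Figure D4:**
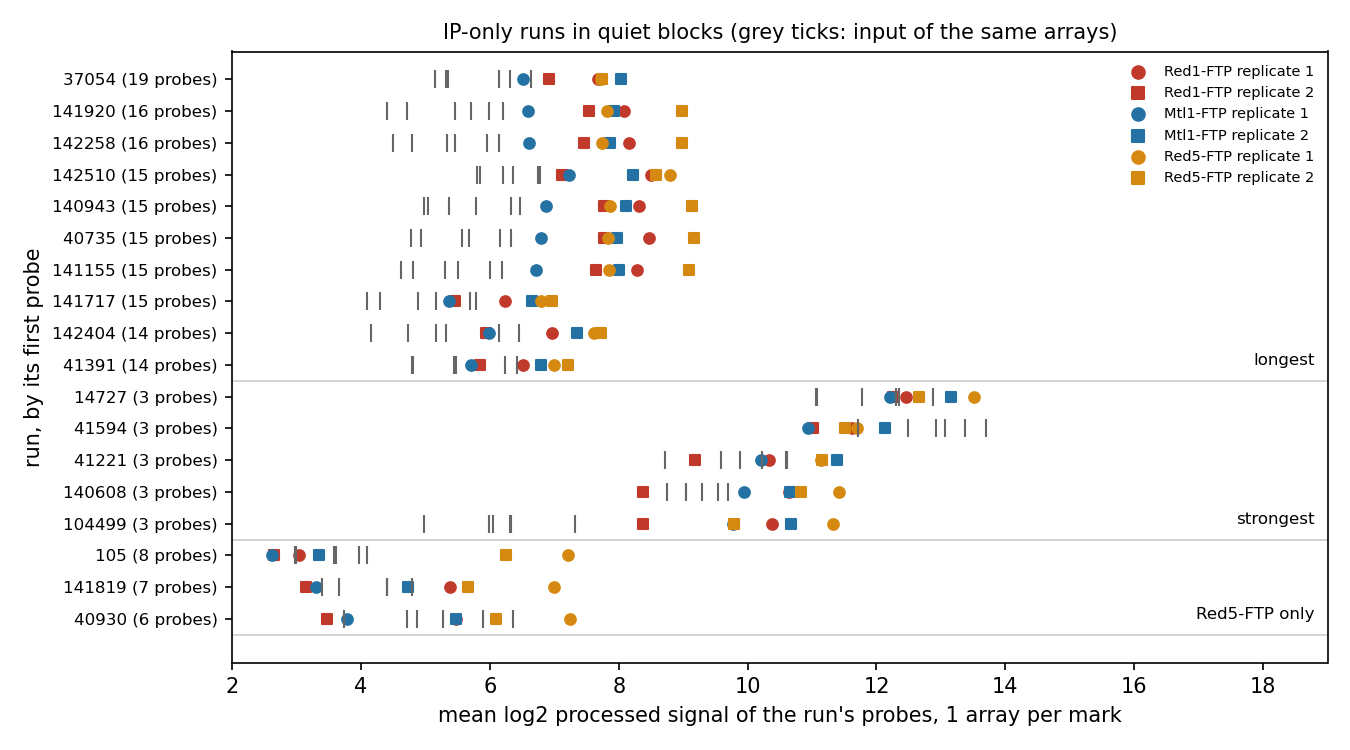
Mean log2 processed signal of the probes of named IP-only runs, 1 coloured mark per array for the IP and 1 grey tick per array for the input, for the 10 longest runs, the 5 with the highest IP signal and the 3 longest found with Red5-FTP only. In the 10 longest runs the IP marks lie to the right of the input of the same array, and in the run starting at 41594 they lie to the left. The 2 Red5-FTP marks of the run starting at 105 stand apart from the other 4.

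IP signal was not confined to the block ends. The outer 5 positions of the blocks had 32.1% of their IP spots detected and the interior, 11 or more positions from both ends, 28.3%. The edge was higher on 6 of 6 arrays, by 1.94 to 5.21 percentage points (mean 3.82 ± 1.07, SD, n = 6, exact p = 0.03125, adjusted p = 0.0521). Without Mtl1-FTP replicate 1, with blocks found again from 5 arrays, the difference was 7.24 points, and it was 7.83 with input on in at least 5 of 6 arrays. Input detection moved the same way, 18.3% at the edge and 16.04% in the interior, and its part was not tested. At the first position the IP share was 35.6%, at positions 2 to 5 it was 29.8 to 33.4%, at 26 to 50 it was 26.3%, and beyond 100 positions from an end it was still 26.9%. Of the IP runs, 36 crossed a block end, and 29 of these overlapped an input run on their own strand.

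The strand of the neighbouring run was compared at the block ends that had an input run on exactly 1 strand. Side A, with 70 ends, holds blocks that follow the higher-numbered end of an even run or precede the lower-numbered end of an odd run, and side B, with 53 ends, holds the reverse. Which side is the start of the RNA was not determined. In the first 10 positions beyond side A, the strand opposite the run had 38.7% of its IP spots detected and the strand of the run 29.7%, a difference of 9.02 ± 3.09 percentage points on 6 of 6 arrays (exact p = 0.03125, adjusted p = 0.0521). Their input shares were 17.3% and 16.4%. Beyond side B the opposite strand had 25.5% and the run strand 29.9% (difference -4.47 ± 3.36, lower on 5 of 6 arrays, exact p = 0.0625, adjusted p = 0.0625). Input detection moved the same way there except on Mtl1-FTP replicate 1. It was 10.2 to 22.6% on the opposite strand and 11.1 to 26.8% on the run strand, and its part was not tested. An input run ends only where more than 1 probe in a row of its strand is off, meaning not on in all 6 arrays. The rule itself thus limits the input of the run strand just beyond a run. On single arrays such probes can still be on. At the first position of the run strand, 23.8% of the input spots were detected beyond side A and 26.1% beyond side B. Both differences turned direction under another definition of the blocks, side A to -0.458 with input runs of 5 or more probes and side B to 0.603 with blocks of 20 or more positions.

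The ratio of IP over input was tested with limma in 14700 windows of 10 consecutive probes of 1 strand, 914 of them inside the blocks. Since the rule selects a low denominator, the counts are read only against all windows. Of the quiet windows, 354 (38.7%) were enriched in the mean of the 3 baits and 166 (18.2%) depleted at an adjusted p under 0.05, and the corresponding shares of all windows were 43.1% and 17.7%. The median log2 ratio was 0.09 in the quiet windows and 0.20 in all windows, and the span from the 10th to the 90th percentile was -0.43 to 1.40 and -0.52 to 1.47. The enriched quiet windows had a median of 47.5% of IP spots detected and the depleted ones 11.7%. The depleted count fell to 88 without Mtl1-FTP replicate 2 and to 93 without Red5-FTP replicate 2. The split, and how the blocks compared with all windows, depended on the processing. With the arrays centred on the mean, 240 quiet windows (26.3%) were enriched and 424 (46.4%) depleted, against 27.4% and 40.4% of all windows. With normexp background correction these were 230 (25.2%) and 335 (36.7%), against 35.6% and 19.7%. With background-subtracted signals, which left 332 quiet windows, 60.2% were enriched and 11.1% depleted, against 38.1% and 22.7%. No order of the blocks and the whole array in this ratio is therefore given.

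Red5-FTP had the most IP runs in the blocks. When runs were called on the 2 arrays of each bait, Red1-FTP had 167 runs in quiet blocks, Mtl1-FTP 211 and Red5-FTP 287, and the share of quiet probes detected on both arrays was 18.4, 19.998 and 28.1%. In the whole dense part the baits had 5198, 5237 and 5492 runs, and 54.8, 55.3 and 54.5% of the probes on both arrays. Of the Red5-FTP runs in the blocks, 27 (9.41%) held no probe that was on in both arrays of either other bait, against 1 of 211 for Mtl1-FTP and 0 of 167 for Red1-FTP. In the dense part 41 of 5492 Red5-FTP runs (0.747%) were of this kind, so 27 of these 41 lay in the blocks. Of the 27, 10 lay in the cluster from 140597, 8 in that from probe 1 and 7 in the longest block. No test was made of these counts, which rest on 2 arrays per bait. None of the 27 runs was off on all 4 other arrays at every probe. Not every block followed this order. In the block from 53325 to 53384, chosen after its values were seen, Red5-FTP had 18.3% and 21.7% of its IP spots detected and the 4 other arrays 40 to 53.3%. Red5-FTP was also lower than Mtl1-FTP in the windows starting at 113941 and 113961 in the IP channel alone, by 2.93 and 2.51 on the log2 scale (limma adjusted p = 0.0157 and 0.0358). In that channel alone Red5-FTP was higher than Mtl1-FTP in the windows starting at 101, 2602, 2622 and 3082. There Mtl1-FTP minus Red5-FTP was -2.72, -3.60, -2.71 and -2.55 (limma adjusted p = 0.0150, 0.0064, 0.0282 and 0.0173). At 2602, 2622 and 3082 Mtl1-FTP was also below Red1-FTP, by 2.66, 1.81 and 1.45 (limma adjusted p = 0.0300, 0.391 and 0.470). Red1-FTP minus Red5-FTP was -0.93, -0.89 and -1.10 there (limma adjusted p = 0.708, 0.752 and 0.683), so these windows did not set Red5-FTP apart from Red1-FTP.

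The clearest Red5-FTP signal lay in the block at the low end of the numbering. In the odd window from probe 101 to 119, the mean log2 IP signal was 6.55 and 5.91 on the Red5-FTP arrays, 2.995 and 2.63 on the Red1-FTP arrays and 2.61 and 3.27 on the Mtl1-FTP arrays. On the Red5-FTP arrays 7 of its 10 probes were well above background, on Mtl1-FTP replicate 2 it was 1, and on the other 3 arrays none. The groups did not overlap. The input of the same window was 4.07 and 3.96 on the Red5-FTP arrays and 2.96 to 3.53 on the others, with 1 input spot detected in all. These signals are not centred between arrays. The negative controls had median log2 input signals of 3.88 and 3.55 on the Red5-FTP arrays and 2.92 to 3.23 on the others. Their median log2 IP signals were 3.71 and 2.83 on the Red5-FTP arrays and 2.61 to 2.97 on the others. The log2 ratio of IP over input was 2.61 and 2.17 on the Red5-FTP arrays, -0.24 and -0.06 on those of Red1-FTP and -0.07 and -0.08 on those of Mtl1-FTP. The Mtl1-FTP minus Red5-FTP difference was -2.46 ± 0.26 (SE, limma adjusted p = 0.0235) and the Red1-FTP minus Red5-FTP difference -2.54 (adjusted p = 0.132). The Red1-FTP and Red5-FTP arrays shared slides. This second difference passed in limma with slide as a random block (adjusted p = 0.0332), in the IP channel alone (0.0382) and with slide as a fixed block (0.000358). The fixed block left 1 residual degree of freedom and called far more windows than the main fit, so its p-values carry little weight. In the main fit this was the only quiet window of 914 past the threshold between any pair of baits, against 7 of 14700 windows in all (0.0476%). At an unadjusted p under 0.05, the number of quiet windows that differed was 78 for Mtl1-FTP against Red5-FTP, 39 for Red1-FTP against Red5-FTP and 32 for Red1-FTP against Mtl1-FTP. These were 8.53, 4.27 and 3.50% of the quiet windows, against 6.66, 4.95 and 5.85% of all windows. Leaving out either Mtl1-FTP array or either Red5-FTP array raised the adjusted p to between 0.0732 and 0.452 while the difference stayed between -2.68 and -2.25. The adjusted p was also 0.255 with normexp correction, 0.322 with loess, 0.317 with the deposited log2 ratios and 0.0787 with the replicate number as a block, while the call was kept in the IP channel alone (0.0150), with mean centring (0.0358), with slide as a random (0.0108) or fixed (0.00035) block and without either Red1-FTP array (0.00916).

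Just before this window each array had at least 1 IP probe detected. At the 7 odd probes from 83 to 95, the mean log2 IP signal was 5.99 and 4.10 for Red1-FTP, 3.86 and 4.98 for Mtl1-FTP and 8.43 and 7.50 for Red5-FTP. All 7 probes were detected on both Red5-FTP arrays, 6 and 2 for Red1-FTP and 1 and 3 for Mtl1-FTP. From 121 to 149 the Red5-FTP arrays still had 2 and 3 of 15 probes detected and the others none. The odd run from 105 to 119, with 8 probes, was the longest of the 27 Red5-FTP-only runs. The next were the odd run from 141819 to 141831 with log2 ratios of 2.33 and 1.48 for Red5-FTP, where Red1-FTP replicate 1 had 1.26 and the other 3 arrays -0.07 to 0.45, and the even run from 40930 to 40940, where the Red5-FTP ratios were 1.47 and -0.03 and overlapped those of the other baits. The 1 Mtl1-FTP-only run, even probes 112088 to 112096, was lower in IP than in input on all 6 arrays, with log2 ratios of -1.14 to -0.38.

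**Figure D5:**
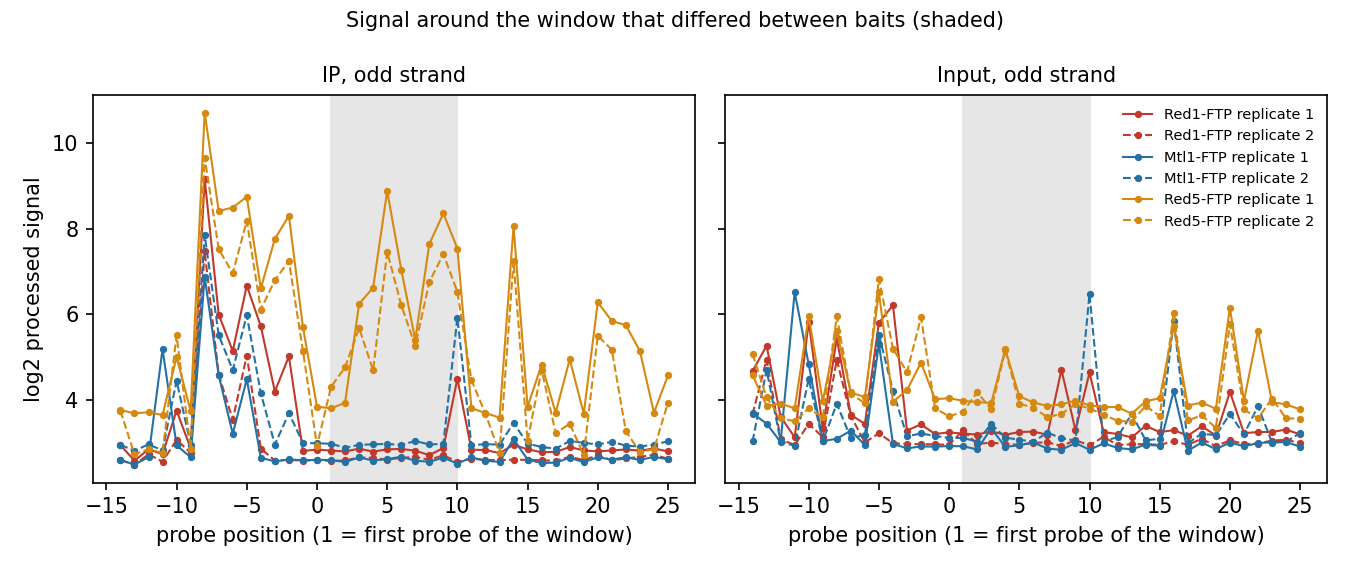
Log2 processed signal of odd-strand probes around the window from probe 101 to 119 (shaded, positions 1 to 10) in the IP (left) and input (right), 1 line per array. Within the window the Red5-FTP lines (means 6.55 and 5.91) stay above those of Red1-FTP and Mtl1-FTP (2.61 to 3.27).

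The same rule applied to the IP channel found 68 blocks without an IP run, with 3969 positions and a longest block of 195 positions. Of these positions 3484 (87.8%) lay in the quiet blocks and made up 67.6% of them, and 60 of the 68 IP-quiet blocks touched a quiet block. In the IP-quiet blocks 16.8% ± 4.201 of the input spots and 21.5% ± 6.48 of the IP spots were detected, and the quiet blocks had 29.1% ± 7.27 of the IP spots (SD, n = 6). The flag is set per channel, and IP shares were above input shares over the whole densely tiled part. The input share of the IP-quiet blocks is therefore not compared with the IP share of the quiet blocks.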

How the data were processed

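RNA bound to 3 tagged MTREC subunits (6 arrays, 2 per bait) was hybridised against total RNA on 2-colour Agilent tiling arrays with 180880 spots. The authors hybridised biological replicates and extracted the intensities with Agilent Feature Extraction 10.7.3.1, and the deposited processed intensities are background-subtracted and dye-normalized. The deposited series table holds log2 ratios of IP over input, set to 0 for 54.0 to 63.8% of probes and otherwise equal to the log2 ratio of the processed intensities. No probe was matched to a gene or a coordinate. Detection was the software's flag for a spot well above background. Ratios were log2 of processed IP over input, outlier spots left out, centred on the array median of non-control probes. The members, lists, comparisons and named regions were chosen with earlier results of these data known. The shares were compared by exact two-sided sign-flip permutation over the 64 sign patterns of the 6 arrays, with Benjamini-Hochberg adjustment over 5 comparisons. Windows were tested with limma 3.58.1 in R 4.3.3, with bait as group means, adjusted over all 14700 windows. Scripts were checked on simulated data. The number of arrays limits the precision, and p-values measure the spread between them. Regions named were the 6 longest blocks, the 3 with the highest and the 3 with the lowest IP share, the 10 longest and the 5 strongest IP-only runs, up to 3 runs of each bait alone, and windows that differed between baits. The replicate 1 arrays shared slide 1, while among the replicate 2 arrays Mtl1-FTP was on slide 3 and the others on slide 2. The replicate number was not taken as a pairing. Alternatives changed the detection flags, the block definition, the ratio's scaling, the window length, the slide or replicate term and the arrays included. Negative controls were set against the median signal, since mean signals were not used here.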

Additional observations from a re-analysis of the deposited data

Results flagged for a closer look

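The difference between strands beyond side A held 1 array far from the others. It was 14.9 percentage points with Mtl1-FTP replicate 2 and 6.71 to 9.57 on the other 5 arrays, and the gap to the nearest array made up 0.649 of the whole range, above the limit for 6 samples. Chance flags about 1 in 20 such groups. Mtl1-FTP replicate 2 was the only array on slide 3 and had the highest input detection in the blocks (23.3%), and the part of either was not tested.

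The odd window starting at probe 101 had an IP over input ratio that differed between baits, with Mtl1-FTP minus Red5-FTP at -2.46 on the log2 scale. The difference stayed negative under the other settings run on it, between -2.72 and -0.98.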

How the results depend on the processing

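Over 204 alternatives, 131 kept their direction and side of the threshold, or stayed close for a count, 2 reversed and 71 moved or changed side of the threshold. The cause was not tested except where fewer probes or windows entered. For the 5 share comparisons, the replicate number as a block uses the same sign patterns as the main test. Those alternatives could therefore only count as kept. In the order short gaps, opposite strand, edge, side A and side B, the share differences in percentage points were -10.7, -10.4, 7.83, 7.67 and -3.31 with input on in at least 5 of 6 arrays (68 IP-only runs), and -12.6, -16.1, 6.26, 7.17 and -7.80 with the flag for a positive and significant IP signal (294 runs, 53.3% of quiet probes), all with an adjusted p of 0.03125. With input on in at least 1 of 6 arrays they were -14.5, -14.8, 4.32, 2.59 (side A, adjusted p 0.0625) and -7.24, with 25 blocks, 5 runs, 10.9% of probes detected and 43 enriched and 24 depleted windows. They were -10.6, -9.71, 6.47 and 8.24 for the first 4 with blocks from the other replicate number, and -10.6, -9.90, 4.03 and 8.50 against the 99th percentile of negative controls (median signal). Over the first 5 positions sides A and B gave 6.62 and -11.6. Apart from that side A value, these settings had an adjusted p of 0.0391. Input runs of 5 or more gave 99 blocks and 269 runs and turned side A to -0.458. Blocks of 20 or more positions gave 173 blocks, 243 runs and 541 enriched windows and turned side B to 0.603, and blocks of 50 or more numbered 30, with side A at 3.26 (adjusted p 0.117). IP runs of 2 or more numbered 244 and of 5 or more 62.

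For enriched, depleted and between-bait windows, background-subtracted signals gave 200, 37 and 0 of 332 windows (60.2% enriched and 11.1% depleted, against 38.1% and 22.7% of all windows). Probes well above background on all arrays in either channel gave 64, 0 and 0 of 67 (95.5% enriched, against 41.0% of all windows, of which 22.7% were depleted). Windows of 5 probes gave 684, 351 and 6 of 1958 (34.9% and 17.9%, against 38.1% and 18.2%), and windows of 20 probes 156, 70 and 0 of 394 (39.6% and 17.8%, against 48.2% and 16.1%). Depleted windows numbered 424 with mean centring and 335 with normexp, where 230 were enriched. Windows between baits numbered 0 with loess, 0 with the deposited log2 ratios, 6 in the IP alone, 5 with slide as a random block and 148 with slide as a fixed block, which left 1 residual degree of freedom and called 17.8% of all windows. With the replicate number as a block 0 differed between baits, with 345 enriched and 149 depleted. Same-numbered arrays of different baits deviated together with r of -0.54, 0.67 and -0.55, so the numbers were not read as pairs, and not every array correlated best with its own number.

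Leaving out 1 array at a time gave -10.7 to -10.1, -10.5 to -7.74, 3.31 to 7.24 (7.24 without Mtl1-FTP replicate 1), 7.57 to 10.4 and -4.91 to -2.85, which 5 arrays cannot test at 0.05 (smallest p 0.0625). Blocks numbered 60 to 65, IP-only runs 106 to 155, IP detection was 27.2 to 30.2%, and enriched windows numbered 312 to 372, depleted 88 to 151 (88 with Mtl1-FTP replicate 2 left out and 93 with Red5-FTP replicate 2 left out) and between baits 0 to 3. Within slides 1 and 2 the differences were -9.85 and -9.64, -6.10 and -12.7, 3.39 and 3.78, 8.57 and 6.79, and -2.33 and -7.08. Near background the signal limits ratios to bounds.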
